A study of Mus musculus with 12 samples.

Results

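Neurexins, neuroligins and SynCAMs are cell adhesion proteins that hold the 2 sides of a synapse together, and their mRNAs were measured here in neurospheres with and without *Ythdf2*. The 9 genes described are 2 neurexin genes (*Nrxn2* and *Nrxn3*), 3 neuroligin genes (*Nlgn1*, *Nlgn2* and *Nlgn3*) and 4 SynCAM genes (*Cadm1*, *Cadm2*, *Cadm3* and *Cadm4*). They are a chosen set, and statements on neurexins, neuroligins and SynCAMs below are about these 9 genes, not about whole families. They were taken by gene symbol from count tables that hold 24525 genes each, and all 9 passed the filter on low counts that left 13112 genes for the test. Neurospheres are floating cultures of neural stem/progenitor cells (NSPCs). Those used here were grown from the forebrain of C57BL/6 embryos at E14.5 in medium with EGF and bFGF and were taken at passage 1. The wild-type group and the *Ythdf2*-/- group had 3 libraries each. In *Ythdf2*-/- embryos, both alleles lacked a stretch around the first exon, from before the 5′ UTR into intron 1, that Cre expressed throughout the body had removed, so that every cell type of the culture carried the deletion. The libraries are the input of an m6A immunoprecipitation, the part of the fragmented mRNA that was kept back from the antibody. The immunoprecipitated libraries were not analysed here.

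Neurexins sit mainly on the presynaptic membrane and bind neuroligins, which sit on the postsynaptic membrane. SynCAMs are immunoglobulin adhesion proteins that bind each other across the synapse and are also found on axons and glia. Proteins of all 3 families span the membrane once and end in a short tail that is bound by PDZ domain scaffolds, such as Cask on the presynaptic and Dlg4 on the postsynaptic side. Ythdf2 is a reader of m6A, a methyl mark on adenosines of mRNA, and shortens the life of marked transcripts. The study asked which mRNAs change when it is missing. *Nrxn3* was one of the mRNAs that the study followed up from these same libraries, so its difference here is not independent evidence. For these candidates the study reported higher mRNA and m6A by quantitative PCR, binding by Ythdf2 and slower decay under actinomycin D. Those assays were not examined here.

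The last 30 bases of each coding sequence are shown because they encode the end of that tail, where PDZ domains bind. Capitals mark the last 15 bases, which hold the final 4 codons and the stop codon.

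Nrxn2: aagaacaaagacaaaGAGTATTACGTCTGA
Nrxn3: aaaaacaaggacaagGAGTATTATGTGTAA
Nlgn1: ccccattcacattcaACAACCAGGGTATAG
Nlgn2: ccccatccccactccACCACTCGGGTATAG
Nlgn3: ccccactcacactccACTACCCGTGTATAG
Cadm1: tccgaagaaaagaaaGAGTACTTCATCTAG
Cadm2: gccgaagagaaaaaaGAGTATTTCATTTAA
Cadm3: ggggatgacaagaagGAATATTTCATCTAG
Cadm4: cacaaacggaaagaaGAATTCTTCATTTGA

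These sequences were read 5′ to 3′ from GRCm38 (mm10), with RefSeq gene models. On the plus strand they lie at chr19:6532119-6532148 for *Nrxn2*, chr12:90332381-90332410 for *Nrxn3*, chrX:101320233-101320262 for *Nlgn3*, chr9:47850361-47850390 for *Cadm1* and chr7:24503592-24503621 for *Cadm4*. On the minus strand they lie at chr3:25433638-25433667 for *Nlgn1*, chr11:69825203-69825232 for *Nlgn2*, chr16:66663093-66663122 for *Cadm2* and chr1:173337021-173337050 for *Cadm3*. The 10 pairs within a family shared 14 to 24 of the 30 bases, and the 26 pairs across families shared 6 to 17, so that the ranges overlapped. *Cadm4* shared 15 with *Nrxn2* but 14 with *Cadm3*. The neurexin and SynCAM ends resembled each other more than either resembled the neuroligins. *Nrxn2* and *Cadm2* shared 11 of the last 15 bases, while *Nrxn2* and *Nlgn2* shared 4.

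The genes differ greatly in size. *Nrxn3* (chromosome 12, plus strand, 88794504 to 90334935) spans 1540 kb, *Cadm2* (chromosome 16, minus strand, 66655421 to 67620908) 965 kb, *Nlgn1* (chromosome 3, minus strand, 25421808 to 26331909) 910.1 kb and *Cadm1* (chromosome 9, plus strand, 47530170 to 47853391) 323 kb. *Nrxn2* (chromosome 19, plus strand, 6418756 to 6533217) spans 114 kb. The other 4 span 11.7 to 33.4 kb, near the median of 23.3 kb over the 13044 tested genes with a gene model. These are *Nlgn2* on chromosome 11 (69823123 to 69834849), *Nlgn3* on the X chromosome (101299179 to 101321350), *Cadm3* on chromosome 1 (173334254 to 173367695) and *Cadm4* on chromosome 7 (24482023 to 24504533). Exons of *Nrxn2*, *Cadm1* and *Cadm2* share 198, 220 and 256 bases with annotated genes on the opposite strand, and the strand setting of the counting is not given in the sources used here, so reads from those stretches could come from either gene.

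GGACT, a common form of the sequence in which m6A is made, was counted in the longest transcript of each gene. It was read on the transcript's strand only. Every one of the 9 transcripts held it, as did 92% of all 13044. *Nlgn2* had the most per length, 1.60 per kb, and *Cadm2* the fewest, 0.42 per kb, against a median of 1.05 per kb over all tested genes. *Nrxn2* (1.05 per kb) and *Nrxn3* (1.01 per kb) were near that median. In the coding isoform used here each neurexin had its GGACT nearest to the stop codon inside the coding sequence, at position -598 relative to the stop codon in *Nrxn2* and at -553 in *Nrxn3*. Both stretches are shown with GGACT in capitals, since *Nrxn3* had the highest fold change of the 9 genes and *Nrxn2* is its relative.

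Nrxn2: cggacgacgaGGACTtttacactac
Nrxn3: gggaatccaaGGACTttagacctaa

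They lie at chr19:6531538-6531562 and chr12:90331845-90331869 of GRCm38, both on the plus strand. A match to these letters is not a measured m6A site.

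The libraries held 11029827 to 13185778 counted reads. *Ythdf2* itself had 71.9, 73.3 and 91.4 CPM (counts scaled to library size) in wild-type replicates 1, 2 and 3 and 11.7, 14.7 and 11.1 CPM in *Ythdf2*-/- replicates 1, 2 and 3. The labels therefore match the targeted gene, and the reads left in *Ythdf2*-/- were not assigned to exons here. The progenitor markers *Vim*, *Fabp7* and *Nes*, an intermediate filament, a fatty acid binding protein of radial glia and nestin, were present in all libraries, at 264 CPM or more. Of 8 microglial markers 3 had no read in any library, and the 8 summed to 0.805 to 1.54 CPM. The 6 endothelial markers summed to 1.01 to 3.51 CPM and the 7 mesenchymal markers to 2.37 to 5.48 CPM, except in wild-type replicate 3, where the latter summed to 35.1 CPM, of which *Pdgfrb* alone made up 31.8 CPM. That library stood apart in general. It lay at 91.0 on a first principal component that held 74.2% of the variance, with the other 5 between -30.6 and -6.04. In it, 15 neuronal markers summed to 2956 CPM against 1777 to 2174 in the others, 10 astroglial markers to 15922 against 4628 to 12768, and 10 oligodendrocyte lineage markers to 4891 against 1795 to 2230. The 10 progenitor markers summed to 3887 CPM in it against 5140 to 7041 in the others. These sums follow the most abundant genes of each list. Among the 10 progenitor markers, *Vim*, *Fabp7* and *Nes* were lowest in that library, while 6 others were highest in it. It was the highest of the 6 libraries in 9 of the 15 neuronal, 5 of the 10 astroglial and 6 of the 10 oligodendrocyte lineage markers, and the lowest in 2, 0 and 3 of them. In some markers the groups did not overlap, as in 10.2% of all genes, and none of these passed adjustment in edgeR over all genes. They included *Rtn1*, *Stmn2*, *Gfap*, *Prom1* and *Mbp*, lower in *Ythdf2*-/-, and *Olig1* and *Cspg4*, higher in it, all named here after their values were seen. The part of these markers in the results below was not tested, and in bulk RNA fewer cells of a type and less RNA per cell cannot be told apart. The genotype comparisons are therefore given with and without wild-type replicate 3. The wild-type replicates that remain were close to each other, with a chi-square over genes of 4.76 per degree of freedom between them against 23.7 to 60.2 between *Ythdf2*-/- replicates.

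Levels can be compared between genes only per length, here as RPKM, that is CPM per kilobase of exon. *Cadm4* was the highest in every library, at 148 ± 46.8 RPKM (SD, n = 6), and took 45.0% to 56.8% of the summed RPKM of the 9 genes. Below it came a group of 5 genes whose ranges overlapped. *Nlgn3* had 30.8 ± 6.54 RPKM, *Nlgn2* 25.8 ± 10.3, *Nrxn2* 25.5 ± 7.04, *Cadm1* 21.3 ± 7.40 and *Cadm2* 16.0 ± 10.5 (SD, n = 6 each). *Nlgn1* at 5.26 ± 1.11 RPKM, *Nrxn3* at 4.15 ± 1.44 and *Cadm3* at 2.57 ± 3.41 formed the lowest group (SD, n = 6 each). The step from *Cadm4* to *Nlgn3* and that from *Cadm2* to *Nlgn1* held in 6 of 6 libraries with no overlap of ranges, while *Nlgn2* exceeded *Nrxn2* in only 2 of 6 libraries. All other steps in the order held in 5 of 6 libraries, and in those the ranges overlapped.

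**Figure D1:**
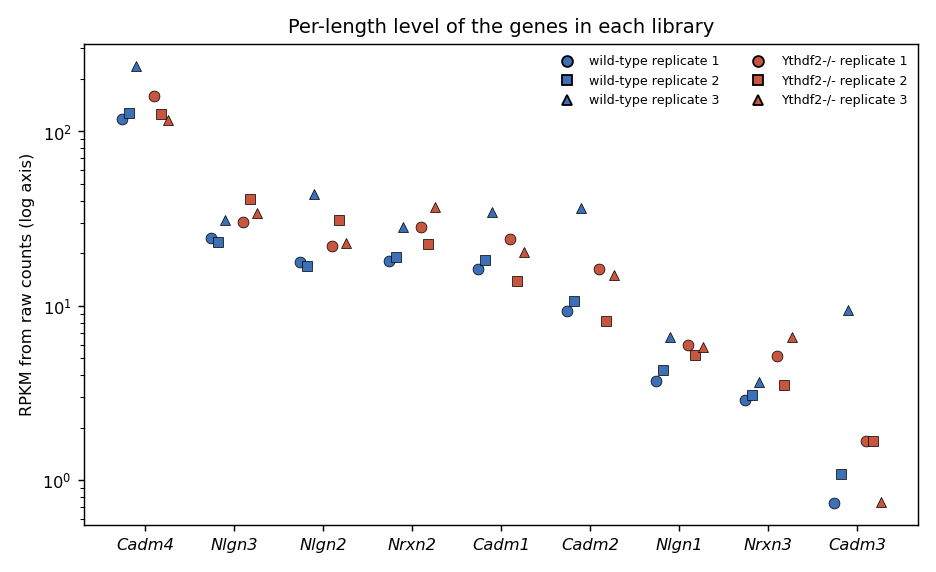
Per-length level (RPKM from the raw counts, log axis) of each gene in the 6 input libraries, ordered by the mean of the 6, with wild-type libraries in blue, *Ythdf2*-/- libraries in red and the replicate number given by the marker. *Cadm4* lies between 117 and 238 RPKM, above every value of the other 8 genes, and the wild-type replicate 3 triangles lie above the other wild-type points in all 9.

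*Nrxn2* and *Nrxn3*, which encode presynaptic receptors, both had a higher mean in *Ythdf2*-/-, and *Nrxn3* had the highest fold change of the 9 genes. *Nrxn2* had 120.4, 127 and 188 CPM in wild-type replicates 1, 2 and 3 and 187, 149.8 and 245 CPM in *Ythdf2*-/- replicates 1, 2 and 3. Wild-type replicate 3 lay above 2 of the *Ythdf2*-/- libraries, so the groups overlapped. The means were 145 ± 37.5 and 194 ± 47.8 CPM (SD, n = 3 each), and the log2 fold change was 0.42 with a standard error of 0.255 and a 95% interval of -0.20 to 1.03. *Nrxn3* was lower, with 319, 380 and 380 counted reads in wild type and 568, 449 and 776 in *Ythdf2*-/-. These correspond to 27.3, 29.0 and 34.8 CPM and to 48.4, 33.2 and 62.4 CPM. The overlap came from a single pair, since wild-type replicate 3 lay just above *Ythdf2*-/- replicate 2. Its level was 1.58-fold higher in *Ythdf2*-/-, a log2 fold change of 0.66 with a 95% interval of 0.05 to 1.27. This was the one gene of the 9 with an unadjusted p under 0.05, which 1.81% of all genes had with a higher and 1.82% with a lower level in *Ythdf2*-/-. After adjustment over all genes its edgeR quasi-likelihood p was 0.999. An exact two-sided permutation test of its log2 CPM gave p = 0.2, where 3 against 3 cannot go below 0.1.

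*Nrxn2* exceeded *Nrxn3* in every library. Per length, it was 5.49 to 6.41 times as abundant in 5 libraries and 7.70 times in wild-type replicate 3, and the pair had a Pearson correlation of log2 CPM of 0.93 over the 6 libraries (0.99 without wild-type replicate 3). Both were highest in *Ythdf2*-/- replicate 3 and lowest in wild-type replicate 1.

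The neuroligins are the postsynaptic ligands of neurexins. With all libraries their log2 fold changes ran from -0.045 to 0.43, with 95% intervals that overlapped. *Nlgn3*, which encodes a neuroligin of both excitatory and inhibitory synapses, had 94.7, 90.7 and 120.4 CPM in wild type and 118, 159.6 and 133 CPM in *Ythdf2*-/-. Here too a single pair overlapped, wild-type replicate 3 with *Ythdf2*-/- replicate 1. The means of 102 ± 16.1 and 137 ± 21.0 CPM (SD, n = 3 each) gave a log2 fold change of 0.43 with a standard error of 0.176 and a 95% interval of -0.00022 to 0.85. *Nlgn3* is X-linked, and the reads on 4 Y-linked genes summed to more than 3 in wild-type replicates 1 and 2 and *Ythdf2*-/- replicate 3, and to 3 or fewer in the others. With a term for those reads its log2 fold change was 0.36 (standard error 0.162). *Nlgn1*, the neuroligin of excitatory synapses, had 60.4, 70.0 and 109 CPM in wild type and 97.4, 85.7 and 94.8 CPM in *Ythdf2*-/-. The *Ythdf2*-/- libraries were close together, with an SD of 6.15 CPM, and lay inside the wild-type range, so that the log2 fold change was 0.21 (standard error 0.235). *Nlgn2*, the neuroligin of inhibitory synapses, had 88.9, 84.4 and 220.1 CPM in wild type and 110.2, 156 and 115 CPM in *Ythdf2*-/-. Wild-type replicate 3 was the highest of the 6 and the other wild-type libraries were the lowest. The means were nearly equal, 131 ± 77.1 and 127 ± 25.5 CPM (SD, n = 3 each), with a log2 fold change of -0.045 (95% interval -1.03 to 0.93). Per length, *Nlgn3* exceeded *Nlgn2* by 1.32 to 1.49 times in 5 libraries, while in wild-type replicate 3 it was 0.704 times as high.

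The 4 SynCAM genes had log2 fold changes below 0 with all libraries, and in each wild-type replicate 3 was the highest of the 6. *Cadm4*, a SynCAM best known from myelinating glia, had 254, 274 and 512 CPM in wild type and 344, 273 and 251 CPM in *Ythdf2*-/-. Apart from the 512 CPM its values ranged from 251 to 344 CPM in both genotypes. Its log2 fold change was -0.26 (standard error 0.307). *Cadm1*, known for inducing presynaptic endings, had 75.2, 84.9 and 160.0 CPM in wild type and 112, 64.4 and 94.5 CPM in *Ythdf2*-/-, a log2 fold change of -0.24 (standard error 0.347). *Cadm2* had 89.2, 102 and 348 CPM against 155, 78.8 and 144 CPM, a log2 fold change of -0.51 (standard error 0.580). *Cadm1* and *Cadm2* moved together, with *Ythdf2*-/- replicate 2 the lowest of the 6 libraries in both and a Pearson correlation of log2 CPM of 0.98 (0.96 without wild-type replicate 3). In that *Ythdf2*-/- replicate the astroglial markers also had their lowest sum, 4628 CPM. That sum follows the most abundant markers, not every marker of the list was lowest there, and a link was not tested. *Cadm3*, found mainly on neurons, was the sparsest, with 36, 59 and 431 counted reads in wild type and 82, 94 and 39 in *Ythdf2*-/-. Its 39.4 CPM in wild-type replicate 3 compare with 3.08 to 6.99 CPM in the other 5 libraries. The log2 fold change of -1.46 had a standard error of 1.005 and a 95% interval of -3.89 to 0.97. Of the neuronal markers, *Dcx*, doublecortin of migrating young neurons, was high in that library, with 315 CPM against 8.36 to 13.1 CPM in the other 5, while *Gap43*, a growth cone protein, was lowest in it, with 55.8 CPM against 74.1 to 176 CPM. Both were chosen after their values were seen.

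**Figure D2:**
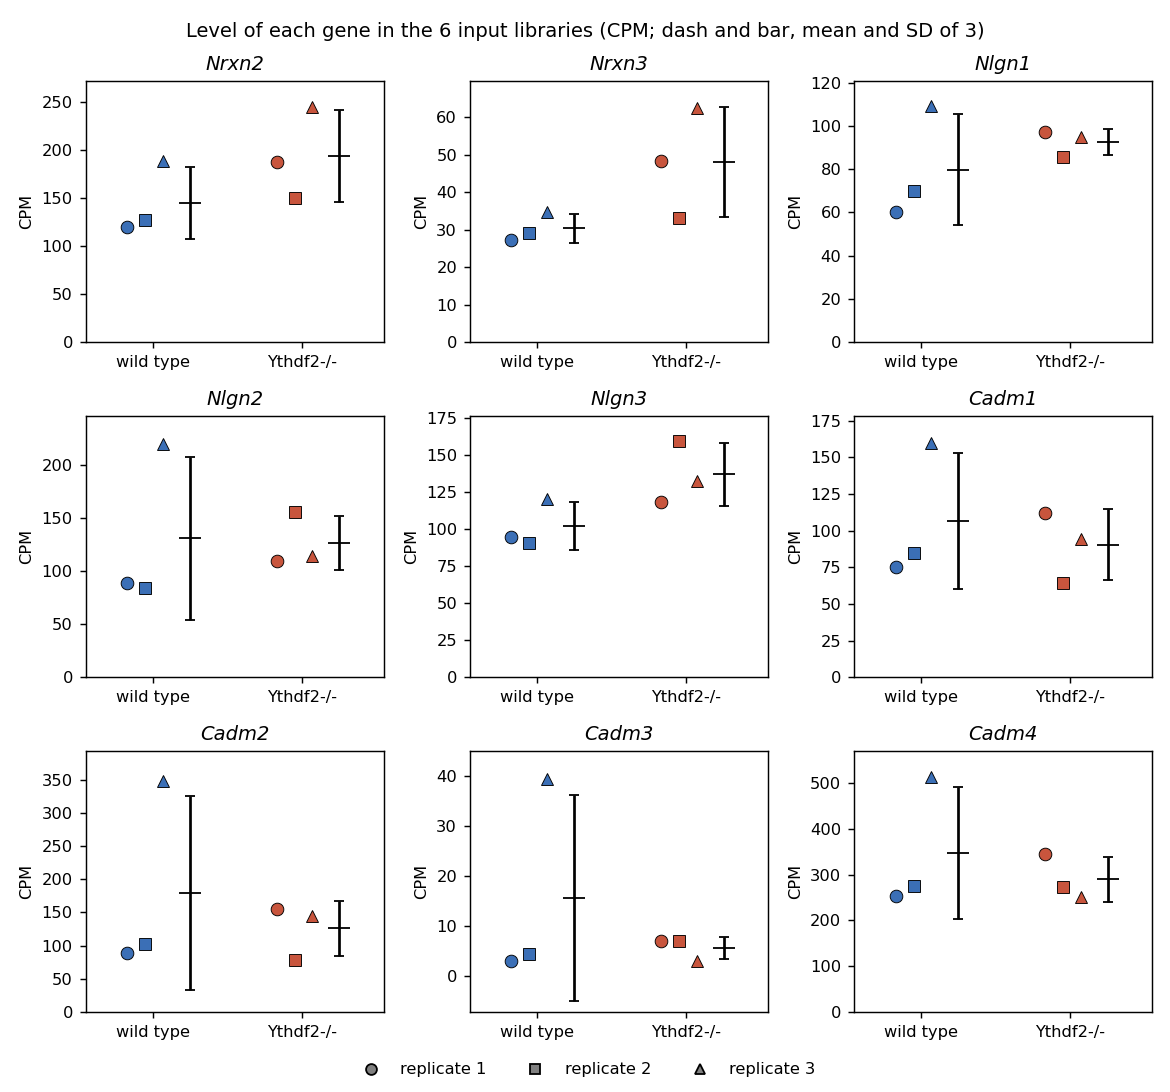
Level in CPM of each of the 9 genes in the 3 wild-type (blue) and 3 *Ythdf2*-/- (red) input libraries, with the replicate number given by the marker and the mean and SD of 3 as a dash with a bar at the side. Wild-type replicate 3 is the highest wild-type library in all 9 panels and the highest of the 6 libraries in *Nlgn1*, *Nlgn2* and the 4 *Cadm* genes.

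No gene of the 9 passed an adjusted p under 0.05 with edgeR, where 0% of the 13112 genes did, and 1 had an unadjusted p under 0.05, where 3.63% of all genes did. *Ythdf2*, the deleted gene, was not called either, with a log2 fold change of -2.66 and an adjusted edgeR quasi-likelihood p of 0.0547. The absence of calls among the 9 is therefore no sign of unchanged levels. DESeq2, limma-voom and limma-voom with sample quality weights also called 0 of the 9, and over all genes they called 31, 0 and 151. With all 6 libraries, 4 genes had a log2 fold change above 0, as had 48.1% of all genes, and 5 below. Their median was -0.045, against -0.011 over all genes. The groups lay apart in 0 of the 9 genes and in 10.2% of all genes, 5.24% with *Ythdf2*-/- higher and 4.92% with it lower.

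With all libraries the 9 genes had no common direction, and without wild-type replicate 3 their log2 fold changes moved upward. The log2 fold changes of all 9 genes were then above 0, as were 51.7% of those of all genes, and their median was 0.55 against 0.014 over all genes. The 2 neurexin and 3 neuroligin genes separated. In these 5 genes, all *Ythdf2*-/- libraries lay above the remaining wild-type libraries, which was so in 18.8% of all genes, and the unadjusted p was under 0.05, as it was with a higher level in *Ythdf2*-/- in 8.03% of all genes. The log2 fold change was 0.65 for *Nrxn2* (95% interval 0.14 to 1.15), 0.77 for *Nrxn3* (0.13 to 1.41), 0.51 for *Nlgn1* (0.23 to 0.78), 0.55 for *Nlgn2* (0.14 to 0.97) and 0.56 for *Nlgn3* (0.21 to 0.91). Y-linked reads summed to more than 3 in wild-type replicates 1 and 2 and *Ythdf2*-/- replicate 3, not in *Ythdf2*-/- replicates 1 and 2. Genotype and these reads are thus partly confounded in this fit, which holds no term for them, and their part was not tested. None of the 9 passed the adjustment over all genes, by which 2 genes (0.0151%) were called. The smallest adjusted p among the 9 was 0.174, for *Nlgn1* (edgeR's quasi-likelihood test). The SynCAM genes did not separate. Their log2 fold changes were 0.17 for *Cadm1*, 0.40 for *Cadm2*, 0.58 for *Cadm3* and 0.13 for *Cadm4*, with 95% intervals that all included 0 and reached up to 0.74, 1.11, 1.60 and 0.51. Whether the neurexins and neuroligins differed from the SynCAMs in their response was not tested. Some markers also lay apart between the genotypes. The astroglial marker *Gfap*, an intermediate filament, had 437, 625 and 3046 CPM in wild type and 127, 87.7 and 5.55 CPM in *Ythdf2*-/-, a log2 fold change of -4.22, or -2.85 without wild-type replicate 3. It was the one of the 10 astroglial markers with groups apart, and 4 of the 10 were higher and 6 lower in *Ythdf2*-/- with a median of -0.071, or 6 and 4 with a median of 0.18 without that library. The progenitor marker *Prom1*, prominin, had a log2 fold change of -2.43, or -1.60 without that library, and was likewise the one of its 10 markers with groups apart. Of these 10, 5 were higher and 5 lower, with a median of 0.00094, or 0.10 without that library. Of 14 neuronal markers tested, 3 were higher and 11 lower (median -0.27), or 8 and 6 (0.13) without that library. Of 9 oligodendrocyte lineage markers tested, 3 were higher and 6 lower (median -0.84), or 4 and 5 (-0.045). With all 6 libraries, 2 neuronal markers lay apart, both lower, and 2 oligodendrocyte lineage markers lay apart higher and 2 lower, against 10.2% of all genes. The part of all these markers in the differences of the 9 genes was not tested.

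**Figure D3:**
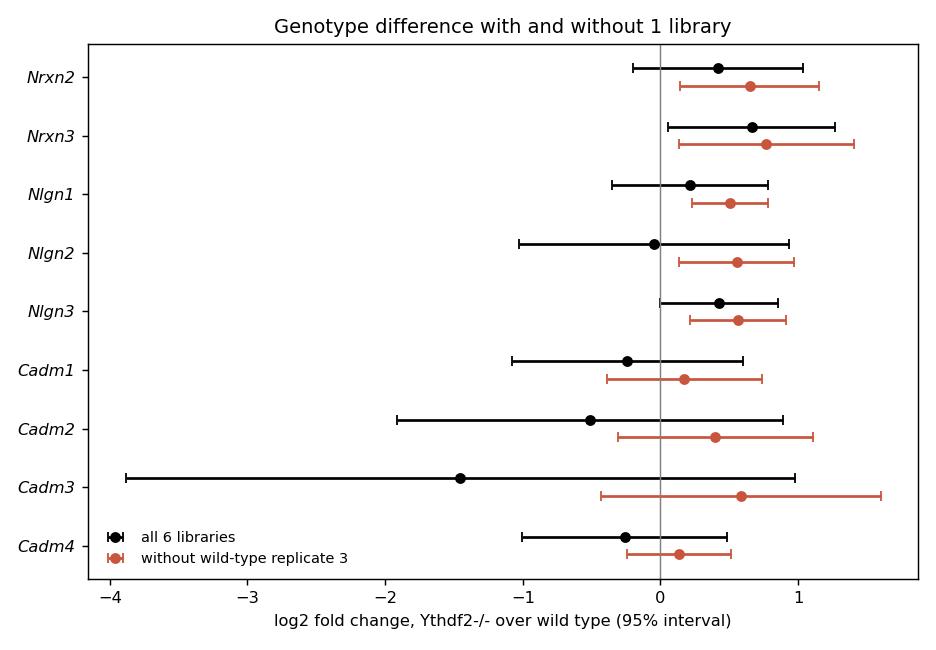
Log2 fold change of each gene, *Ythdf2*-/- over wild type, from edgeR's quasi-likelihood fit over all genes, with 95% intervals (bars), with all 6 libraries (black) and without wild-type replicate 3 (red). In black, the interval of *Nrxn3* is the one that leaves out 0, and in red those of the 2 neurexins and 3 neuroligins do.

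Single libraries of the *Ythdf2*-/- group also decided which genes separated. Without *Ythdf2*-/- replicate 2, the groups lay apart in *Nrxn2*, *Nrxn3* and *Nlgn3* (22.2% of all genes), and without *Ythdf2*-/- replicate 1 in *Nlgn3* (15.3% of all genes). Without *Ythdf2*-/- replicate 3 the log2 fold changes of *Nrxn2* and *Nrxn3* were at their lowest, 0.22 and 0.43. In each fit that left out 1 library, *Nrxn2*, *Nrxn3*, *Nlgn1* and *Nlgn3* stayed above 0. *Nlgn1* came closest to 0, at 0.052 without wild-type replicate 1.

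Wild-type replicate 3 deviated upward in all 9 genes, but by unlike amounts. Its CPM was 1.24 times the mean of the other wild-type libraries for *Nrxn3*, 1.30 times for *Nlgn3*, 1.52 times for *Nrxn2*, 1.67 times for *Nlgn1*, 1.94 times for *Cadm4*, 1.998 times for *Cadm1*, 2.54 times for *Nlgn2*, 3.65 times for *Cadm2* and 10.4 times for *Cadm3*. The median of this ratio over all tested genes was 1.01, and 90% of genes lay between 0.238 and 3.004. *Cadm2* and *Cadm3* lay above that range, at the 96.5th and 99.6th percentile.

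**Figure D4:**
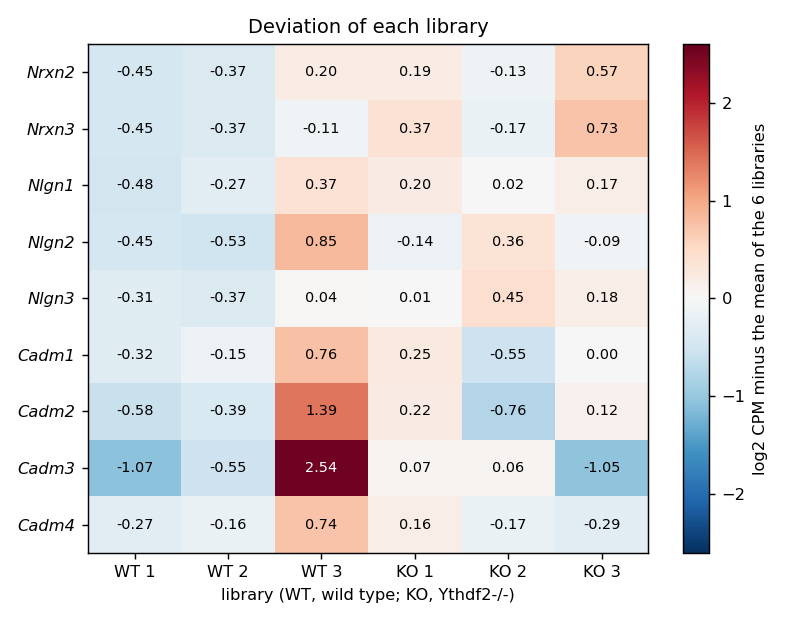
Log2 CPM (prior count 2) of each gene in each library minus the mean of its 6 libraries, with red above and blue below the mean. Wild-type replicate 3 runs from -0.11 for *Nrxn3* to 2.54 for *Cadm3*, while wild-type replicates 1 and 2 lie below 0 in all 9 genes.

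The genes with the most similar profiles over the 6 libraries were looked up among 9825 genes with a mean of at least 10 CPM, for the gene of each family with the highest mean CPM. For the neuroligins this was *Nlgn2* through wild-type replicate 3, since *Nlgn3* had the higher CPM in the other 5 libraries. *Setd7*, *Dcaf10* and *Hivep1* were closest to *Nrxn2* (Pearson's r of log2 CPM of 0.996, 0.994 and 0.992). *Kdm2a*, *Zswim8* and *Proser1* were closest to *Nlgn2* (0.997, 0.996 and 0.995), and *Spag1*, *Fgf11* and *Rab2b* to *Cadm4* (0.998, 0.997 and 0.997). These are the highest of many correlations over 6 libraries, of which wild-type replicate 3 is one, and are given as a description. Without that library they were 0.985 to 0.997.

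Known partners of these proteins were examined as 4 lists. No partner passed the edgeR test after adjustment over all genes. Of 19 secreted and membrane partners, 15 could be tested, and in *Ythdf2*-/- 10 were higher and 5 lower. Their median log2 fold change was 0.17, and without wild-type replicate 3 it was also 0.17, with 12 higher and 3 lower. They were led by *Dag1*, dystroglycan, which binds neurexins, with 620.9, 669 and 529.7 CPM in wild type and 633, 561 and 986 CPM in *Ythdf2*-/-, and by *Clstn1*, a calsyntenin, with a log2 fold change of 0.0049. In 2 of the 15, *Lrrtm1* and *Lrrtm4*, postsynaptic neurexin ligands named here after their values were seen, every *Ythdf2*-/- library exceeded every wild-type library, as in 5.24% of all genes. *Lrrtm1* had 4.45 to 6.22 CPM in wild type and 6.28 to 11.2 CPM in *Ythdf2*-/-, and *Lrrtm4* had 1.45 to 4.12 and 4.67 to 6.00 CPM. The *Lrrtm4* values rest on 17 to 81 reads a library. The study named *Lrrtm1* and *Lrrtm4* among its up-regulated genes from these same libraries, so their difference is not independent evidence. The more abundant *Lrrtm2* and *Lrrtm3* had overlapping groups, with log2 fold changes of -0.21 and 0.43. The 18 presynaptic scaffolds were led by *Epb41l2*, a protein 4.1 of the membrane skeleton that had 454 CPM in wild-type replicate 3 and 109 to 177 CPM elsewhere, and by *Lin7c*, a partner of Cask that had 181 to 206 CPM in the 6 libraries. Of the 18, 5 were higher and 13 lower, with a median of -0.11, which became 13 higher and 5 lower with a median of 0.12 without wild-type replicate 3. *Apba2*, an adaptor of the Mint family and named here after its values were seen, was the one scaffold of the 18 with groups apart, against 10.2% of all genes. It had 138, 142 and 122 CPM in wild type and 170.4, 203 and 170.2 CPM in *Ythdf2*-/-, a log2 fold change of 0.44 with a standard error of 0.135. Its adjusted edgeR p was 0.999.

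The 19 postsynaptic scaffolds tested, of 20, had a median log2 fold change of 0.038, and in 0 of them the groups lay apart, against 10.2% of all genes. Among them was *Magi1*, a scaffold with PDZ domains, with a log2 fold change of 0.038. In the list 12 were higher and 7 lower, or 15 and 4 with a median of 0.068 without wild-type replicate 3. *Khdrbs1*, which encodes a splicing regulator of neurexin transcripts, and *Adam10*, a protease that sheds neurexin and neuroligin ectodomains, led the 9 splicing and shedding factors, with log2 fold changes of -0.060 and -0.022. Of the 8 of these that could be tested, 3 were higher and 5 lower, with a median of -0.041, or 4 and 4 with a median of 0.032 without wild-type replicate 3. *Ncstn*, nicastrin of the gamma-secretase complex and named here after its values were seen, was the one of the 8 with groups apart, against 10.2% of all genes, with 115, 115 and 96.4 CPM in wild type and 117, 139 and 118 CPM in *Ythdf2*-/-.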

How the data were processed

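Raw read counts per gene from 6 input libraries were analysed, 3 wild-type and 3 *Ythdf2*-/-, grouped by sample title. The 6 m6A-IP samples were not analysed here. According to the methods, the authors aligned reads to mm10 with TopHat, and the deposited counts are whole reads per gene without normalization. The submitters' processing notes also list featureCounts, RSEM 1.2.15 and Bowtie2 2.2.9. The deposited FPKM and expected counts come from tables with RSEM columns, and these expected counts sum to 1.97% to 2.40% of the raw counts. The FPKM values served only as an alternative, tested with limma on log2(FPKM + 1) and log2(FPKM + 0.1).

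Counts were filtered with filterByExpr, scaled with TMM (factors 0.988 to 1.03) and tested with edgeR 4.0.16 (robust glmQLFit, then glmQLFTest, R 4.3.3). The model held genotype alone, and p-values were adjusted by Benjamini-Hochberg over all 13112 genes. A fold change above 1 means a higher level in *Ythdf2*-/-. CPM used the scaled library sizes. RPKM used the union of exons of the RefSeq transcripts listed in the deposited tables, in GRCm38.p6. Alternatives were DESeq2 1.42.0, limma-voom (limma 3.58.1) with and without quality weights, RLE factors, other filters, a replicate block, a term for reads on 4 Y-linked genes (sum above 3) and leaving out each library. The fit was also run on simulated counts that had the same dispersion for every gene and no outlying library. That run therefore does not cover the effect of wild-type replicate 3, and no result here rests on it. The genes, lists and tests were chosen with earlier results of these data known. All 9 genes are named, with the 2 most abundant genes of each partner list, up to 2 markers a list and the 3 genes with the most similar profile per family. Other markers and list members are reported in sums and counts. One gene that this rule names is not reported here. *Nes*, *Dcx*, *Gap43*, *Pdgfrb*, *Lrrtm2*, *Lrrtm3* and the named markers and partners with separate groups were added after their values were seen. The labels do not say which embryos gave which library, so p-values measure the spread between these libraries. No 2 libraries were identical, and each was counted as 1 replicate.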

Additional observations from a re-analysis of the deposited data

How the results depend on the processing

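In 14 alternatives on the raw counts, 112 of 126 values of the 9 genes kept their direction, and 14 reversed, with no gene called. Leaving out 1 library gave a median log2 fold change of the 9 genes of -0.28 to 0.55, a count of genes with separate groups of 0 to 5 and 0 to 2 calls over all genes. The log2 fold change then ran from -0.28 to 0.55 for *Nlgn2*, -0.44 to 0.17 for *Cadm1*, -0.83 to 0.40 for *Cadm2*, -1.94 to 0.58 for *Cadm3* and -0.44 to 0.13 for *Cadm4*. The highest values came without wild-type replicate 3. Quality weights, which gave that library a weight of 0.0957, moved the median to 0.51 and reversed *Nlgn2* (0.41), *Cadm1* (0.30), *Cadm2* (0.51), *Cadm3* (0.51) and *Cadm4* (0.21). They brought the smallest adjusted p of the 9 to 0.0513, for *Nrxn3* (limma-voom). *Nlgn2*, which is also the median of the 9, was above 0 with limma-voom (0.081) and the replicate block (0.092). Over all genes, where edgeR called 0 (476 at an unadjusted p under 0.05), 31 were called by DESeq2, 151 with quality weights, 13 with the term for Y-linked reads and 1 each with RLE factors, without a filter or with at least 10 reads in every library. DESeq2 gave *Cadm3* no p. The causes of these shifts were not tested.

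Replicate numbers are shared between genotypes. Same-numbered libraries deviated from their group means in opposite directions (correlations of -0.39 to -0.24), and pairs with unlike numbers had correlations of -0.19 to 0.40. With 3 libraries a group and wild-type replicate 3 far from the others, these values cannot show whether same-numbered libraries share an origin. The replicate block left 0 genes called and 183 at an unadjusted p under 0.05. Behind the FPKM values stand 1 to 109 expected counts a gene, summed over the 6 libraries. With 1 added, 6 genes reversed, *Nrxn2* (-0.37), *Nlgn1* (-0.26), *Nlgn2* (0.25), *Nlgn3* (-0.11), *Cadm1* (1.15) and *Cadm2* (0.12). With 0.1 added these were -0.57, -1.12, 0.99, -0.22, 3.02 and 0.17. Each of these differences except those of *Cadm1* was smaller than its standard error. At 36 to 94 reads in 5 libraries, *Cadm3* has the least depth.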
